A study of Mus musculus with 2 samples.

Results

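Pyruvate stands at a fork: pyruvate carboxylase, the product of Pcx, turns it into oxaloacetate, the pyruvate dehydrogenase complex turns it into acetyl-CoA, and lactate dehydrogenase turns it into lactate. This gene set, chosen because Pcx was strongly higher with retinoic acid, holds 10 genes: Pcx, the mitochondrial pyruvate carrier genes Mpc1 and Mpc2, the dehydrogenase subunit gene Pdha1, the 4 pyruvate dehydrogenase kinase genes Pdk1 to Pdk4, the lactate dehydrogenase gene Ldha and Pck2, which encodes mitochondrial phosphoenolpyruvate carboxykinase. All probe sets carrying 1 of these symbols were taken, and 9 of the 10 genes had at least 1, among 18193 named genes on the array; Mpc2 has no probe set named here and was not analysed here. After retinoic acid, Pcx signal was 5.04-fold higher and Pdk4 signal at least 14.6-fold higher, Pck2 signal was 2.27-fold lower, and the other 6 genes differed by at most 1.27-fold.

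The cells were superficial zone cells, the flattened chondrocytes of the articular cartilage surface, taken from the femoral and tibial joint of 4-day-old ICR mice and grown in DMEM with 10% serum. One culture was left without retinoic acid (control, n = 1) and 1 received 10 μM retinoic acid, the active form of vitamin A, for 24 h (n = 1); no transgene or other agent is named in the labels. Each culture gave 1 Affymetrix Mouse Genome 430 2.0 array, so no value has a replicate check, there is no p-value, and a fold can include a difference between animals or preparations. Signals are MAS5 intensities on a linear scale; a signal at or below the array's median over all probe sets that are not controls (26.5 in control, 29.7 with retinoic acid) was treated as not measured, and a gene measured on just 1 of the arrays has a bound ("at least") in place of a fold. With so few arrays the precision of all values is limited, and fewer cells of a type cannot be told apart from less RNA per cell.

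Pyruvate carboxylase is a biotin-dependent mitochondrial enzyme that refills the citrate cycle and starts glucose synthesis in liver and glyceride and citrate export in fat. The pyruvate dehydrogenase kinases switch the dehydrogenase off by phosphorylating the subunit that Pdha1 encodes, and Pdk4 is the kinase gene that responds most to fasting, fatty acids and nuclear receptors. Cartilage cells live with little oxygen and are known to make most of their ATP by glycolysis with lactate release.

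The labels were checked first. Cyp26b1, which encodes a retinoic acid-degrading enzyme, went from 40.3 in control to 4624 with retinoic acid, and the retinoic acid receptor gene Rarb from 5.73, below the median, to 1929. Of the 8 cartilage and superficial zone markers, all were above the median on both arrays. Prg4, the lubricin gene, read 1920 in control and 1148 with retinoic acid, and the collagen gene Col2a1 read 9538 and 7366. The summed signal of these markers was 36088 in control and 17874 with retinoic acid, with 4 of 8 at least 2-fold lower (4.34% of all measured genes were), among them the aggrecan gene Acan (32.3-fold) and the transcription factor gene Sox9 (10.8-fold). The part that this shift in cartilage markers has in the values below was not tested.

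Of the 9 pyruvate genes measured, 2 were at least 2-fold higher, against 6.54% of 11884 measured genes, and 1 was at least 2-fold lower, against 4.34%. Because the set was chosen on the Pcx value on these arrays, the counts describe it and nothing is read from them. The median log2 ratio of retinoic acid over control was -0.0038 over the 9 genes and 0.011 over the 11733 genes with a fold or bound. The set therefore splits into 3 genes far from 0 and 6 near it: of the 2-fold genes Pck2, at a log2 ratio of -1.18, lay nearest the line, and of the others Pdk3, at -0.34, lay farthest from 0. Where a gene had several probe sets above the median, their log2 ratios scattered with a pooled SD of 0.30 (4993 genes); this covers measurement within the same RNA and holds nothing of the spread between cultures.

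**Figure D1:**
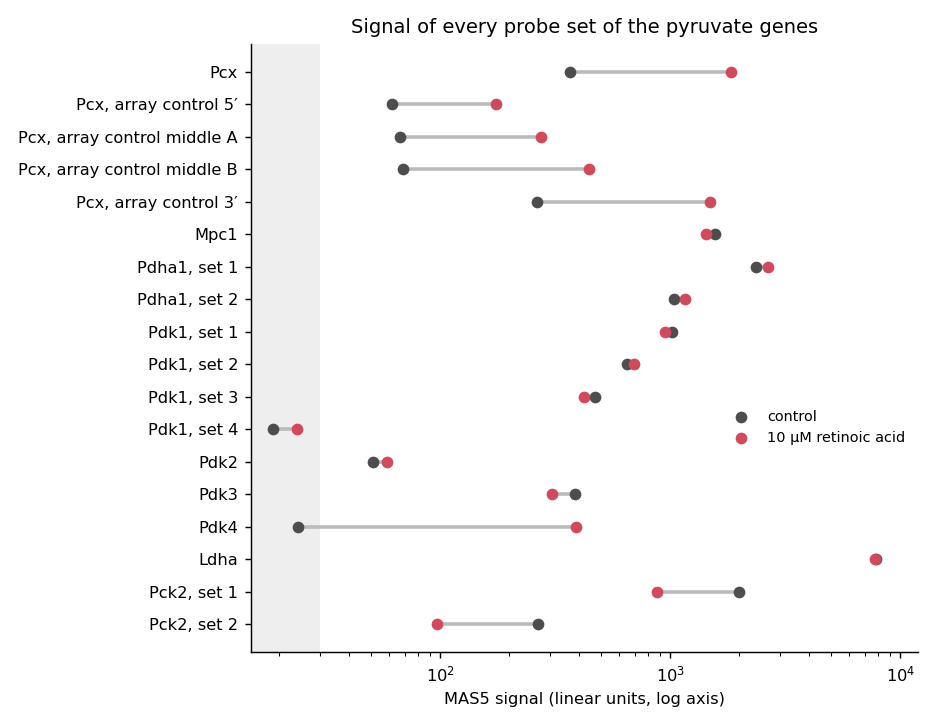
Signal of all 18 probe sets of the pyruvate genes on a log axis, with 1 point for the control array and 1 for the retinoic acid array joined by a line; sets of a gene are numbered from the brightest, and the grey band ends at 29.7, the median of the retinoic acid array. All 5 lines of Pcx and that of Pdk4 run to higher signal, both lines of Pck2 run to lower signal, and the points of the other genes lie close together.

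Pcx was read by 5 probe sets, 1 in the ordinary part of the array and 4 among the manufacturer's controls, which lie along the transcript from its 5′ to its 3′ end. The ordinary probe set read 366 in control and 1844 with retinoic acid. The control probe set at the 5′ end read 61.6 and 174, the 2 in the middle 66.9 and 276, and 69.0 and 443, and the one at the 3′ end 264 and 1494. Retinoic acid was the higher array in all 5, and each of the 5 was above the median on both arrays. The folds were 5.04 for the ordinary probe set and 2.83, 4.12, 6.41 and 5.66 from the 5′ to the 3′ control, with a median of 5.04. The size of the difference thus varied between the probe sets, with an SD of log2 ratios of 0.46 over the 5, while its direction did not. In control the 5′ and middle probe sets (61.6, 66.9 and 69.0) lay nearer the median of 26.5 than the 3′ one (264). The parts that low signal and place along the transcript have in this variation were not tested.

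The ratio of 3′ to 5′ signal, an array check of how far labelled cRNA extends from the 3′ end, was 4.28 for Pcx in control and 8.58 with retinoic acid. For 1 gene it is no direct measure of that length, and the Pcx 5′ probe set was dim in control (61.6). For other control transcripts the same ratio was close between the arrays: 5.09 and 4.88 for the transferrin receptor gene Tfrc, 1.29 and 1.25 for the actin gene Actb, and 0.824 and 0.839 for Gapdh. Within those transcripts the folds at the 5′, middle and 3′ probe sets ran from 1.10 to 1.20 for Tfrc, from 1.10 to 1.19 for Actb and from 0.993 to 1.03 for Gapdh. The change in 3′ to 5′ ratio was therefore seen in Pcx and not in these 3 genes. For Tfrc the comparison is weak, because its 5′ probe set lay just above the median on both arrays. It read 27.6 in control (median 26.5) and 31.5 with retinoic acid (median 29.7). The part that the change in the Pcx ratio has in the Pcx fold was not tested.

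**Figure D2:**
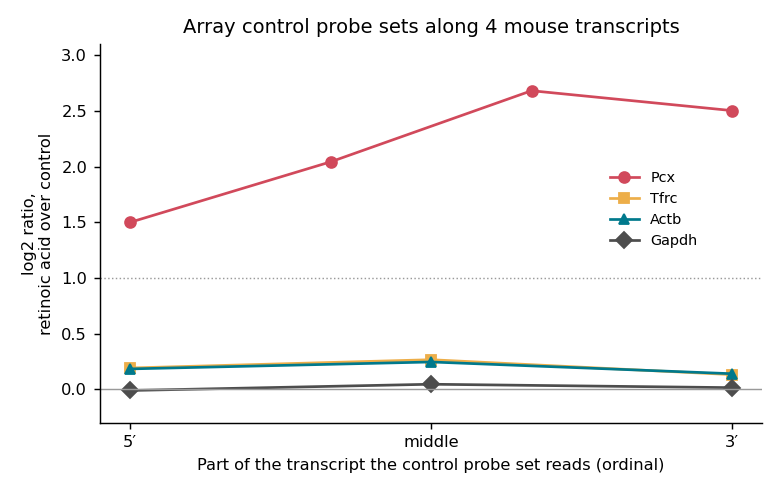
Log2 ratio of retinoic acid over control for the array's control probe sets, ordered from the 5′ to the 3′ end of 4 mouse transcripts; each point is 1 probe set and the dotted line marks 2-fold. Pcx lies above 2-fold at all 4 places, from 1.50 at the 5′ end to 2.68 in the middle, while Tfrc, Actb and Gapdh lie between -0.010 and 0.27.

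Among the 10722 genes above the median on both arrays, 89 (0.830%), Pcx included, had a ratio at least as high as that of Pcx. Because Pcx was chosen for its high value on these arrays, this rank is a description and nothing is read from it. The 4 genes whose log2 ratio lay nearest to that of Pcx (2.33) were Shisa2 (2.34), Klhl24 (2.32), Cavin2 (2.35) and the guidance cue gene Slit2 (2.35). With 2 arrays this likeness rests on 1 ratio per gene.

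RefSeq places Pcx transcripts at 2 start sites on mouse chromosome 19 (build GRCm38.p6). Whether any probe set here tells transcripts of one from the other was not checked. Both 300-base stretches, 250 bases before and 50 after the start, are shown because Pcx is the gene the set was built on. Capitals mark ACGTG, the core bound by hypoxia-inducible and E-box factors, and the hexamer AGGTCA, its variant AGTTCA, the variant GGGTCA and the further variant GGTTCA, the building block of retinoic acid response elements; both strands were searched, so a match on the other strand appears as its reverse complement, and a palindrome counts on both strands.
Pcx first start, chr19:4510222-4510521, + strand: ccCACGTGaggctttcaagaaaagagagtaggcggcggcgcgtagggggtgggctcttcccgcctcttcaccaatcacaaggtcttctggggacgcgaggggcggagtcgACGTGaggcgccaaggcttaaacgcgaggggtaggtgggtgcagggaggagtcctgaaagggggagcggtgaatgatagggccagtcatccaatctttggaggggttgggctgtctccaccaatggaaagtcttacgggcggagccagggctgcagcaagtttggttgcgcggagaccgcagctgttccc
Pcx second start, chr19:4594069-4594368, + strand: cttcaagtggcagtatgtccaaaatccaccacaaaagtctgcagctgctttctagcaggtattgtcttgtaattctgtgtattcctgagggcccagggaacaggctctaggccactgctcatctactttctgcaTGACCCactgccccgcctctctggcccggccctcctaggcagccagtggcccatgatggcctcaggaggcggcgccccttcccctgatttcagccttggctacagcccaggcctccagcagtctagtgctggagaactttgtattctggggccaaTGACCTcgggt

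The first Pcx stretch held ACGTG beginning 247 bases before the start, as part of a palindrome read on both strands, and again 140 bases before it, and held no hexamer. The second held 2 hexamers on the opposite strand, one beginning 116 bases before the start and one 39 bases after it, and no ACGTG. A hexamer is common: 43.7% of the 32851 promoters in the table hold at least 1, and 19.6% hold ACGTG. Pairs of hexamers in direct repeat spaced by 1, 2 or 5 bases, the arrangement that retinoic acid receptors bind, were in 0 of the 15 stretches of the 10 genes, against 0.222%, 0.268% and 0.0974% of all promoters. These matches describe letters in a short window and are no evidence of binding or of its absence.

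The carrier and dehydrogenase steps showed small differences. Mpc1, a subunit gene of the carrier that brings pyruvate into mitochondria, read 1571 in control and 1431 with retinoic acid, 1.10-fold lower. Pdha1, which encodes the catalytic subunit that the kinases phosphorylate, read 2352 and 2664 at its brighter probe set and 1040 and 1162 at the other, 1.13-fold and 1.12-fold higher. These log2 ratios, -0.13, 0.18 and 0.16, are smaller than the 0.30 spread between probe sets.

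The 4 kinase genes differed widely in their ratios. Pdk1, the kinase gene known as a target of hypoxia-inducible factor, read 1016 in control and 948 with retinoic acid at its brightest probe set, 648 and 699 at the next and 471 and 423 at the third; the fourth was below the median on both arrays. The 3 measured probe sets had log2 ratios of -0.10, 0.11 and -0.16, so their signs differ and all are within the spread between probe sets. Pdk2, the most widely expressed kinase gene, read 50.9 and 58.6, both near the median, and was 1.15-fold higher. Pdk3 read 387 and 306 and was 1.27-fold lower.

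Pdk4 had a single probe set, which read 24.2 in control, just under that array's median of 26.5, and 388 with retinoic acid. Against the control median this is a bound of at least 14.6-fold (log2 ratio 3.87), and 26 of 11733 genes with a fold or bound (0.222%), Pdk4 included, had a ratio or bound at least as high. The ratio of the signals as deposited, 16.0, is no measured fold because the control signal is not above the median. With the median raised to the 70th percentile of each array the bound was at least 3.20-fold. Pdk4 was thus the kinase gene with a large difference, while Pdk1, Pdk2 and Pdk3 lay between log2 ratios of -0.34 and 0.20; with 1 array per group the difference between them was not tested.

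The Pdk4 promoter, shown because this member had the highest ratio in the set, held 1 of the hexamers, AGTTCA, beginning 116 bases before the start, and no ACGTG.
Pdk4, chr6:5496229-5496528, - strand: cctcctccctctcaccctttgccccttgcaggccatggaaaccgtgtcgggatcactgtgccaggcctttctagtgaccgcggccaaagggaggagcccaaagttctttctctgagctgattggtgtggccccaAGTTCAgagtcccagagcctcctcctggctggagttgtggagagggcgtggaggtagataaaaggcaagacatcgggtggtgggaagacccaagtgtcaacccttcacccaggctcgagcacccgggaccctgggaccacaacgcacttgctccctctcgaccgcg

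Lactate dehydrogenase A, which reduces pyruvate to lactate, differed least: at its single probe set Ldha read 7811 in control and 7790 with retinoic acid, a log2 ratio of -0.0038. No dimmer probe set of Ldha was there to compare this bright one with. Its sister gene Ldhb, which encodes the subunit typical of oxidative tissues and belongs to the glycolysis and lactate list, read 590 and 1569, 2.66-fold higher. The other 3 Ldhb probe sets were 2.71-fold, 3.32-fold and 3.40-fold higher. All 4 Ldhb probe sets thus had the higher signal with retinoic acid. None of the 4 is a probe set unique to a transcript, so with only such probe sets Ldhb has no value.

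Pck2 encodes the mitochondrial enzyme that makes phosphoenolpyruvate from oxaloacetate, the product of pyruvate carboxylase. Its brighter probe set read 1992 in control and 878 with retinoic acid, 2.27-fold lower, and the other read 266 and 96.8, 2.75-fold lower. Both probe sets were above the median on both arrays, and 302 of 10722 such genes (2.82%), Pck2 included, had a ratio at least as low. Pck1, the gene of the cytosolic enzyme, was below the median on both arrays (6.66 and 12.7). Pcx and Pck2, whose products act one after the other on oxaloacetate in mitochondria, therefore lay on opposite sides.

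Pck2 is a known target of ATF4, the transcription factor of the amino acid response, and that list went the same way. All 13 of its genes were measured; 8 were past 2-fold on the lower side and 0 on the higher, around a median log2 ratio of -1.36 (0.011 over all genes). The list was chosen with earlier results of these arrays known, and 4.34% of all measured genes were lower by that much. Atf4 itself read 5102 in control and 2278 with retinoic acid, 2.24-fold lower. The glutathione-degrading enzyme gene Chac1 was 6.06-fold, the pseudokinase gene Trib3 5.09-fold and the stress factor gene Ddit3 3.58-fold lower. The amino acid transporter gene Slc7a5 was 2.96-fold, the serine synthesis gene Psph 2.88-fold and the folate enzyme gene Mthfd2 2.57-fold lower, and the cystine transporter gene Slc7a11 at least 3.17-fold lower. A dimmer Ddit3 probe set gave a smaller log2 ratio, -0.28. Whether the lower Pck2 signal is tied to that of Atf4 was not tested.

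The Pck2 promoter is shown for the pattern TGATGNAA, which covers part of the composite site bound by ATF4 and was added to the search after the Pck2 value was known. It held that pattern on the opposite strand, beginning 103 bases before the start, and 1 hexamer on the opposite strand 54 bases before it. TGATGNAA is in 3.97% of the 32851 promoters and in 1 of the 15 stretches of the 10 genes. A match to a pattern added in this way is no evidence of binding.
Pck2, chr14:55540016-55540315, + strand: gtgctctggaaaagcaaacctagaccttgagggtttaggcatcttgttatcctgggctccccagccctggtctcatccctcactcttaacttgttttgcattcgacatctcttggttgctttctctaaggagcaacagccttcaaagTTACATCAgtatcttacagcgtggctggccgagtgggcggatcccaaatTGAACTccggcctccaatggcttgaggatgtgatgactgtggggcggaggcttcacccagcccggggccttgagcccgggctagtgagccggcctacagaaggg

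**Figure D3:**
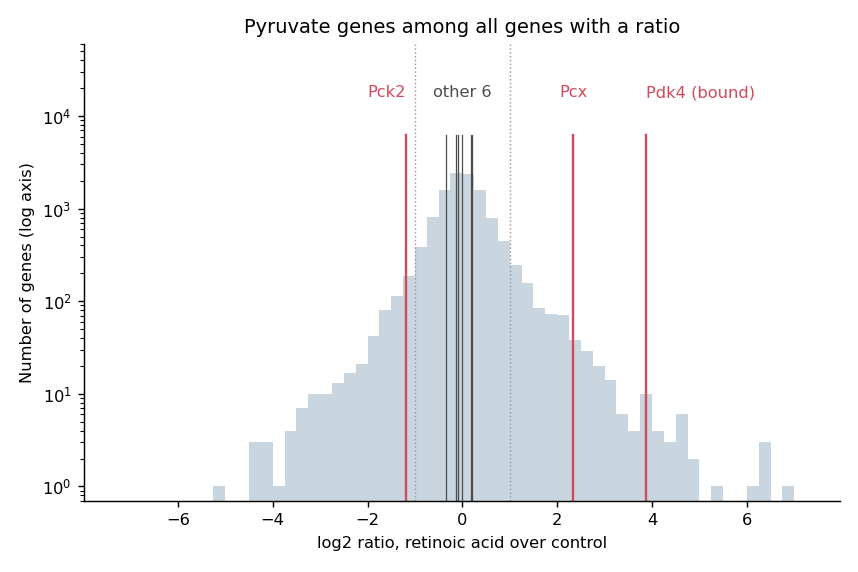
Log2 ratio of retinoic acid over control for the 11733 genes with a fold or bound (bars, gene number on a log axis) with the 9 measured pyruvate genes as vertical lines; dotted lines mark 2-fold. Pck2 lies at -1.18, Pcx at 2.33 and the bound of Pdk4 at 3.87, and the other 6 genes lie from -0.34 to 0.20.

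The genes around the fork were read from lists chosen with earlier results of these arrays known. In the rest of the pyruvate dehydrogenase complex and its phosphatases, 0 of 7 measured genes were past 2-fold either way. Over all measured genes 6.54% were higher and 4.34% lower by that much, so for 7 genes a count of 0 is near the background. The median log2 ratio was 0.11. The widest were the phosphatase genes Pdp2 (70.3 in control, 131 with retinoic acid, log2 ratio 0.89) and Pdp1 (1580 and 1185, -0.42). Those 2 genes encode the enzymes that undo the work of the kinases, and they lay on opposite sides. In the citrate cycle list, which pyruvate carboxylase feeds, 0 of 16 measured genes were past 2-fold in either direction, against the same shares. A list this short cannot tell 0 from those shares. Its median was 0.069. The widest there were the succinyl-CoA ligase gene Suclg2 (-0.52) and the isocitrate dehydrogenase gene Idh3b (0.48). Dimmer probe sets above the median on both arrays gave -0.28 for Suclg2 and 0.67 for Idh3b.

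Glycolysis and lactate genes had 2 of 20 measured members past 2-fold: Ldhb on the higher side and, on the lower, the aldolase gene Aldoc (470 in control and 161 with retinoic acid, 2.92-fold). Over all measured genes 6.54% were higher and 4.34% lower by that much, so the count is near the background, and the list's median was -0.017. Among genes that use oxaloacetate, malate or citrate or make glucose, 1 of 15 was past 2-fold, on the lower side, and the median was -0.083. That gene was Gpt2, which encodes the mitochondrial enzyme that exchanges pyruvate and alanine; it read 1361 and 607, 2.24-fold lower, and its other 3 probe sets had log2 ratios of -0.89, -1.11 and -1.37. The glucose phosphatase gene G6pc, like Pck1, was below the median on both arrays. These 2 were named after their values were seen.

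Pyruvate carboxylase shares its biotin cofactor with other carboxylases, whose genes were read beside it. Of 7 measured genes of biotin enzymes, 0 were past 2-fold in either direction, against 6.54% higher and 4.34% lower over all measured genes. Their median was -0.22. The acetyl-CoA carboxylase gene Acaca (417 in control, 254 with retinoic acid) had a log2 ratio of -0.71. A dimmer Acaca probe set above the median on both arrays (42.1 and 36.2) gave a smaller one, -0.22. The log2 ratio of the propionyl-CoA carboxylase gene Pccb was -0.63. In the hypoxia list, with which Pdk1 and Ldha are usually grouped, 1 of 13 measured genes was past 2-fold, against the same shares. That gene was the adrenomedullin gene Adm (3.16-fold higher), and the list's median was -0.12.

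Fatty acid oxidation and PPAR target genes, the usual company of Pdk4, had 3 of 13 measured members past 2-fold, 1 higher and 2 lower (6.54% and 4.34% over all measured genes), and a median of 0.29. The higher gene was Ppargc1a, a coactivator gene of mitochondrial and fasting programmes, which read 53.6 in control and 176 with retinoic acid, 3.29-fold. A second Ppargc1a probe set above the median on both arrays was 2.45-fold higher. The lower genes were the thioesterase gene Acot2 (3.01-fold) and Angptl4, which encodes a lipase inhibitor and is a common PPAR target (942 and 454, 2.08-fold); a dimmer Acot2 probe set had a log2 ratio of -0.88.

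**Figure D4:**
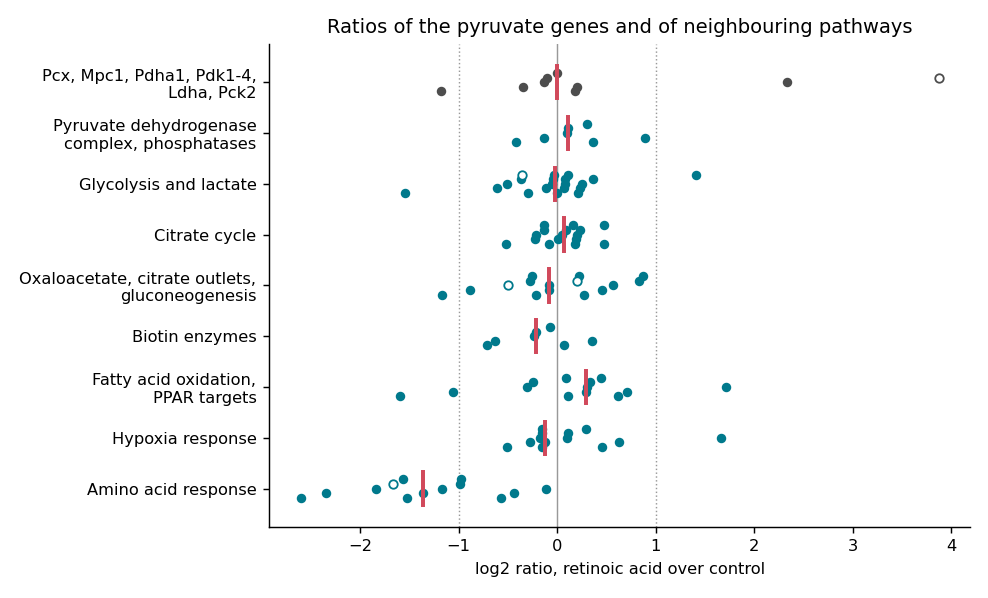
Log2 ratio of retinoic acid over control for each gene with a fold (filled) or bound (open) in the pyruvate genes (grey, top) and 8 neighbouring lists; red bars are medians and dotted lines mark 2-fold. The amino acid response list lies furthest to the left, with a median of -1.36, and the medians of the other 7 lists lie from -0.22 to 0.29.

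Pcx is also abundant in fat and Pdk4 in muscle, so markers of those cells were read beside them. Of the adipocyte markers with a probe set named here, Adipoq, Cidec, Retn and Lep were below the median on both arrays, and only the fatty acid binding protein gene Fabp4 was above it (244 in control, 2689 with retinoic acid, 11.0-fold higher). The summed signal of the 5 was 258 and 2719, nearly all from Fabp4. Of 7 skeletal muscle markers 6 had a fold or bound, and none of these values reached 2-fold; for Myh1, at 23.2 in control and 49.9 with retinoic acid, the value is a bound of at least 1.88-fold higher, which does not limit the difference to under 2-fold. The summed signal of the 7 was 466 and 543. Of 6 macrophage markers 5 were measured and 0 were past 2-fold, with a summed signal of 524 and 593. The 3 hepatocyte markers with a probe set were below the median on both arrays.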

How the data were processed

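Total RNA from the 2 cultures was labelled with biotin and hybridised to 1 array each, per the labels' protocols. The authors deposited 1 intensity per probe set, on a linear scale, made with MAS5 per the submitters' processing notes. Which version and scaling target they used is not given in the sources used here, nor are detection calls. The values were used with no further scaling.

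Of 45101 probe sets 64 were controls. Of the others 34945 had 1 gene symbol in the platform's annotation, 932 several and 9160 none; the last 2 kinds were not used. Each gene took the values of its brightest probe set (mean log2 signal over both arrays), and signals at or below the array's median were raised to it. A bound pointing the wrong way, because the medians differ, gave no fold. The counting step was tested on simulated data with changes put into bright genes only. That test did not cover changes near the median or the spread between cultures. The genes, lists and motifs were chosen with earlier results of these data known. The text names all 10 genes with every probe set, list genes past 2-fold (otherwise the widest 2), the 4 genes nearest to Pcx, and 6 label checks. Promoters are from RefSeq (GRCm38.p6); all 10 genes matched. Alternatives covered floor, offset, scaling and probe set choice. Python 3.11.15, numpy 2.4.6, pandas 2.3.3 and statsmodels 0.14.6 were used.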

Additional observations from a re-analysis of the deposited data

How the results depend on the processing

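Under the 9 alternatives (floors at the 30th or 70th percentile or none, the median as an offset, 3 scalings, the median over probe sets, and only probe sets unique to a transcript), no value past 2-fold changed sign; among those near 0, Pdk1 ran from -0.18 to 0.11 and Ldha from -0.040 to 0.046. Pcx kept log2 ratios of 2.26 to 2.33 wherever its ordinary probe set was used. Only the offset and the 3 scalings could move that value, because Pcx has 1 ordinary probe set and it lies above every floor. The Pcx control probe sets gave 1.50 at the 5′ end and 2.68 in the middle. Pdk4 was 1.68 with the 70th percentile floor and 3.04 with the offset. Only 1 gene was at least 2-fold higher with probe sets unique to a transcript, a setting that has no value for Pcx, Mpc1 or Ldha. Pck2 ran from -1.46 to -1.15. Over all genes, 449 were at least 2-fold higher and 260 lower with the 70th percentile floor, 2137 and 2106 with none, and 832 lower with the 30th, against 777 and 516. In the neighbouring lists, 14 of 216 values moved by more than 1.5 times or 0.30: glycolysis had 0 to 2 genes higher and 0 to 3 lower, oxaloacetate and citrate outlets up to 1 higher and 2 lower, biotin enzymes up to 1 lower, fatty acid oxidation 0 to 2 higher and 1 to 2 lower, and the amino acid median was -1.06 over all probe sets. Leaving out an array was not possible with 1 per group. No paired analysis was possible because each group has 1 array. Signals near the median limit Pdk2 and the control level of Pdk4.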
